A study of Mus musculus with 30 samples.

Results

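The 4367 genomic positions described here took a piggyBac (PB) insertion in at least 8 of 17 PB-treated mouse livers. They were chosen by the presence of a record at the same chromosome and start in the deposited per-liver files, with strand ignored. They make up 0.481% of the 908720 nuclear positions hit in any PB liver, and their 49554 records make up 4.02% of all PB site records. The recipients in both groups were Fah KO mice, the mouse model of tyrosinemia type I. These mice lack the enzyme that completes tyrosine breakdown. One group received the PB vector system (17 livers) and the other the Sleeping Beauty (SB) vector system (13 livers). Age, sex and dose were not given in the sources used here, no untreated liver was analysed, and each liver is 1 library of bulk DNA, in which more cells with an insertion and stronger amplification of it cannot be told apart.

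PB is a DNA transposon first found in a moth. Its transposase cuts the element out of one DNA molecule and joins it to another at the sequence TTAA, which stands on both sides of the inserted element afterwards. Since TTAA reads the same on both strands, the element can enter the same target in either orientation. SB, rebuilt from inactive fish elements, joins at TA. In liver gene therapy both serve to put a lasting copy of a therapeutic gene into hepatocyte chromosomes, and in Fah-deficient liver corrected hepatocytes are known to outgrow uncorrected ones.

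PB livers numbered 1 to 12 held 66528 to 124238 nuclear sites and those numbered 13 to 17 held 16364 to 40598. SB livers held 4893 to 120219 sites, and SB liver 13 was the smallest. The labels do not say how the higher numbers differ. Between any pair of PB livers 1.23% to 7.83% of the smaller library's records (position and strand) were shared, so no library repeated another. Each record carries a whole number in column 4. The labels do not describe it, and amplified reads that carry no molecular identifier cannot be taken as separate molecules.

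Positions became rarer with every further liver. There were 754749 positions in 1 liver, 93260 in 2 livers, 2629 in 7 livers, 1703 in 8 livers, 732 in 10 livers and 245 in 12 livers. Only 12 positions were found in 16 livers and 3 in 17. Positions in 8 livers make up 39.0% of the 4367, so the values below lean on the lower end of the range. On either side of the limit the values lay close together. Positions in 8 livers and in 7 livers had records on both strands in 99.1% and 98.5% of cases. Their median column 4 percentiles were 57.7 and 56.4, where a percentile ranks a record among all records of its own liver. The mean numbers of SB sites within 5 kb either side were 7.01 and 6.96.

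**Figure D1:**
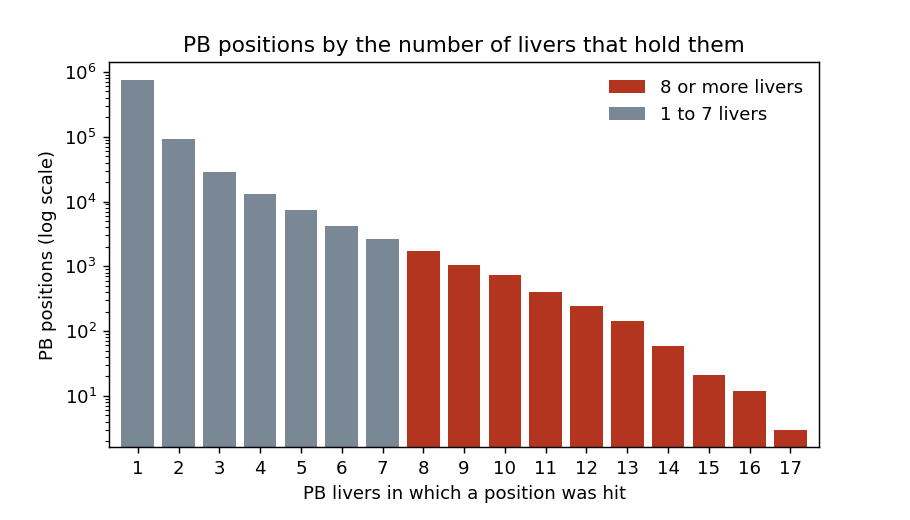
Number of PB positions (vertical axis, log scale) by the number of PB livers in which they were hit (horizontal axis). Red bars are the 4367 positions in 8 or more livers, which run from 1703 positions in 8 livers to 3 in 17. Grey bars are positions in 1 to 7 livers.

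Single livers held 819 to 3411 of the 4367 positions, with a median of 2643. Livers 1 to 12 each held 55.0% to 78.1% of them and livers 13 to 17 each held 18.8% to 42.8%. The order was reversed for the weight of these positions within a library. They took 5.02% to 5.36% of the sites of livers 13 to 17 and 3.45% to 4.37% of the sites of livers 1 to 12, and the 2 ranges did not overlap. Livers 13 to 17 were also the smallest PB libraries, so liver number and library size cannot be told apart here. Inside livers 1 to 12 the share was 3.59% in the largest library, liver 7 (124238 sites). In the smallest, liver 4 (66528 sites), it was 4.16%. These shares contain the values used for the choice and are given without a test.

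To measure recurrence in data that the choice had not used, each PB liver was left out in turn and positions in at least 8 of the other 16 livers were looked up in it. The 17 choices overlap, so the 17 values are not fully independent. The liver left out contained 46.7% ± 18.8 of these recurrent positions (SD, n = 17), against 1.54% ± 0.80 of the positions found in exactly 1 of the other livers. The share was lowest in liver 16, at 14.1% against 0.336%, and highest in liver 7, at 69.9% against 2.69%. The mean of the log2 ratios gave 32.8-fold, and the ratio was above 1 in 17 of 17 livers (exact two-sided sign-flip permutation test over livers, p = 1.53e-05, the smallest that 17 livers allow). The Benjamini-Hochberg adjusted p was 3.06e-05 over the 8 tests reported here (exact permutation tests except where resampling is named). Livers 13 to 17 contained 14.1% to 34.1% of the recurrent positions, against 45.1% to 69.9% in livers 1 to 12, and also less of the positions compared with. The ratio ran from 25.1 to 34.0 in livers 1 to 12 and from 38.5 to 46.4 in livers 13 to 17. The lists of recurrent positions behind these ratios held 3177 to 3582 and 3789 to 4128 positions, so these ranges are not compared. Against positions in exactly 2 of the other livers the mean ratio was 8.44-fold.

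**Figure D2:**
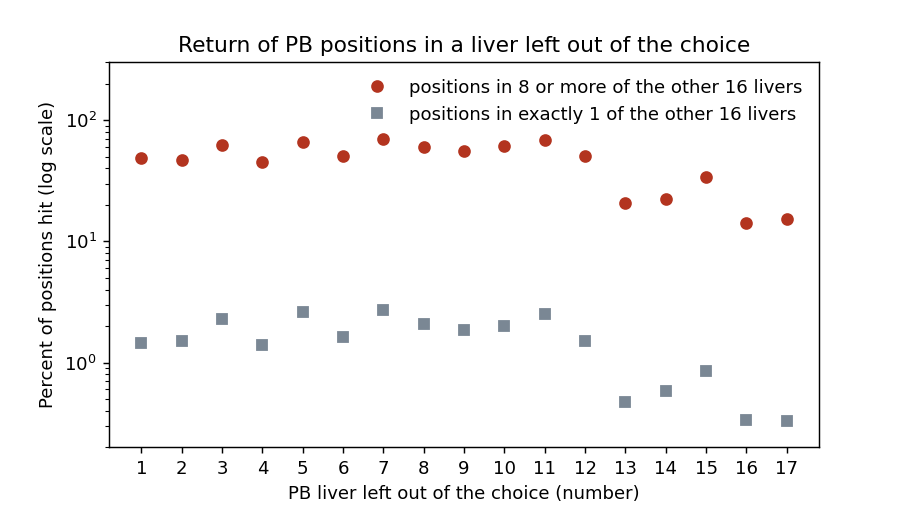
Percent of positions hit in a PB liver that was left out of the choice (vertical axis, log scale) for each of the 17 livers (horizontal axis). Red circles are positions in 8 or more of the other 16 livers and grey squares are positions in exactly 1 of them. Red lies above grey in every liver, from 14.1% against 0.336% in liver 16 to 69.9% against 2.69% in liver 7.

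The positions were spread over all 19 autosomes and the X chromosome, and none lay on Y. Among autosomes their number per 1000 hit positions ran from 4.17 on chromosome 3 to 5.83 on chromosome 19. The X chromosome stood apart, with 25 recurrent positions or 0.768 per 1000. X thus held 0.572% of the recurrent positions, against 3.58% of all PB positions and 3.96% of those found in 1 liver. Single PB livers fell into 2 ranges, with 2.20% to 2.27% of their sites on X in livers 1 to 6 and 3.28% to 3.72% in livers 7 to 17. The labels do not say how these livers differ. The X share was 2.05% among positions in 2 livers, 1.20% in 5 livers and 0.470% in 8 livers. A position on a chromosome with fewer sites per liver has fewer chances in each liver, and the part of this in the X values was not tested.

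Along the chromosomes the positions lay close together. The median distance from one to the nearest other was 38725 bp, against 190185 bp from a position found in 1 liver to the nearest recurrent one. Of the 4367, 837 (19.2%) had another within 1 kb, 1465 (33.5%) within 10 kb and 2943 (67.4%) within 100 kb. Positions found in 7 livers, just outside the choice, had a recurrent position within 10 kb in 32.7% of cases and positions found in 1 liver in 8.11%. When neighbours at most 10 kb apart were chained, 2902 positions stood alone and 1465 fell into 633 clusters. Most clusters were pairs (491), and 142 held 3 or more positions.

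The cluster with most positions held 10 within 9675 bp, chr1:88206303-88215977 (GRCm39), with 73 plus-strand and 73 minus-strand records in 8 to 16 livers per position. It comprised 5 positions between 88206303 and 88207287 and 5 between 88213520 and 88215977. The next held 6 positions within 8053 bp, chr10:93372365-93380417, in 8 to 13 livers each. A further 8 clusters held 5 positions each, of which the first 3 by chromosome and position were chr1:27922365-27924738, chr1:139941000-139947331 and chr4:62006295-62011907. The first of these was the tightest of the named clusters, with 5 positions in 2374 bp. SB sites around these clusters varied. Positions of the 10-member cluster had 18.9 SB sites within 5 kb either side on average, summed over the SB livers, against 2.17 and 2.80 for the clusters on chromosome 10 and chr1:27922365-27924738.

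At the scale of 1 Mb, 1428 of the 2642 windows that held any PB position (54.1%) held a recurrent one. A total of 285 windows held 5 or more, and these windows contained 44.7% of the 4367 positions. The 264 richest windows, ranked on the recurrent positions themselves, contained 42.3% of them. The 264 richest ranked on all PB positions contained 21.6% of all PB positions. Ranking windows on small counts raises the share of the richest by itself. With 4367 recurrent positions against 908720 PB positions, these shares are therefore not compared. The window with most was on chromosome 4 from 150 Mb, with 19 recurrent positions among 1098 PB positions (1.73%). Windows on chromosome 1 from 88 Mb and chromosome 6 from 71 Mb held 16 each, and those on chromosome 5 from 90 Mb and chromosome 10 from 128 Mb held 15 each. On chromosome 1 from 88 Mb, 2.29% of the PB positions were recurrent, and 10 of the 16 belonged to the cluster described above. Genes at these places are not named, because the gene table at hand is of another build (GRCm38.p6) than the sites.

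Insertions in both orientations were the rule. The records divided into 24538 on the plus strand and 25016 on the minus strand (50.5% minus), and 4331 of the 4367 positions (99.2%) had records on both. This share grew over the lower classes: 50.8% for positions in 2 livers, 75.9% in 3 and 88.4% in 4. It was 99.1% in 8 livers, but 83.3% of the 12 positions in 16 livers and 66.7% of the 3 in 17. With at least 8 records per position a high share was set largely by the choice, and no test is given. In 3509 positions (80.4%) at least 1 liver held both orientations at once. The median position had both in 2 livers and the highest in 13. The position with most records was chr14:20723889-20723892, with 16 plus-strand and 13 minus-strand records in 16 livers, 13 of which held both. The position chr6:71170423-71170426 had both orientations in every one of the 13 livers that contained it, all livers but 13, 14, 16 and 17.

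In livers left out of the choice, both strands were present at 20.5% ± 10.5 of the recurrent positions that the liver held (SD, n = 17), against 1.63% ± 0.80 of its other positions. In single livers the share at recurrent positions ran from 3.46% (liver 17, against 0.415% elsewhere) to 35.6% (liver 11, against 2.71% elsewhere). The ratio was 12.3-fold and above 1 in 17 of 17 livers (exact two-sided sign-flip permutation test, p = 1.53e-05, adjusted p = 3.06e-05). It lay between 8.35 and 14.02 in single livers, although the share itself varied with the size of the library.

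The column 4 numbers were modestly higher at recurrent positions. In livers left out of the choice, their median over records was 21 to 166 at recurrent positions, with a median of 78 over livers. The other sites of the same livers had medians of 17 to 159, with a median of 68. The ratio was 1.14-fold and above 1 in 17 of 17 livers (exact two-sided sign-flip permutation test, p = 1.53e-05, adjusted p = 3.06e-05). It was 1.12 to 1.24 in livers 1 to 12 and 1.02 to 1.10 in livers 13 to 17. The medians differed far more between livers than between recurrent positions and other sites of the same liver. Liver 7 had medians of 21 and 17 at recurrent positions and other sites, and liver 16 had 166 and 159. Positions with a record on 1 strand only in that liver, on both sides of the comparison, gave 1.13-fold. The mean of log2 values gave 1.31-fold.

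**Figure D3:**
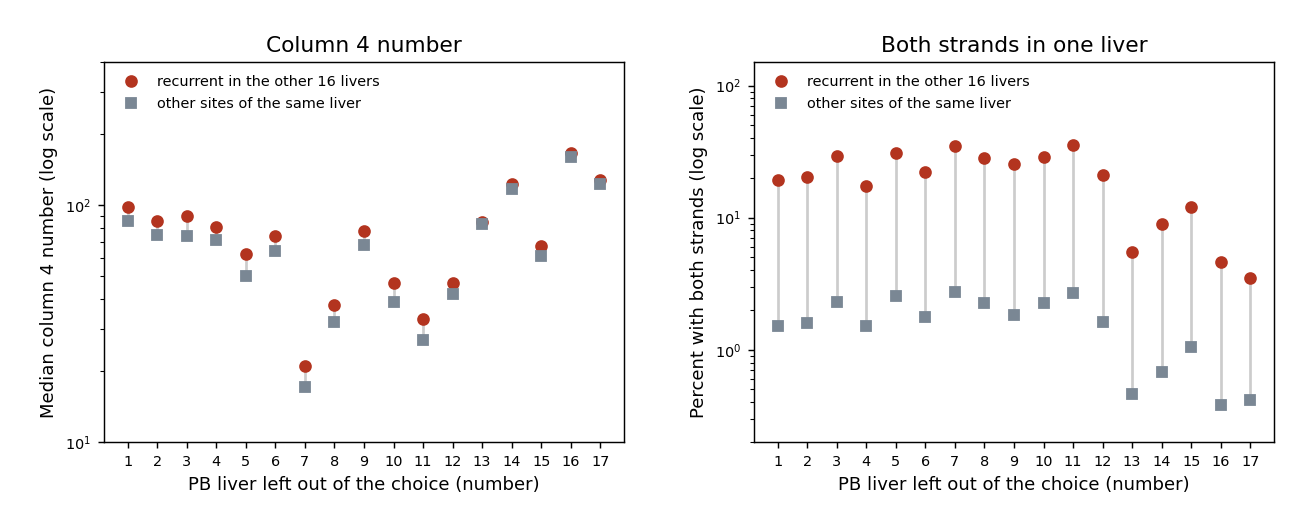
Values in each PB liver left out of the choice (horizontal axes). The left panel shows the median column 4 number per record and the right panel the percent of hit positions with a record on each strand (vertical axes, log scale). Red circles are positions recurrent in the other 16 livers and grey squares the other sites of the same liver. Red lies above grey in every liver in both panels, by 1.02 to 1.24 times on the left and by 8.35 to 14.02 times on the right.

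Across all 4367 positions the median column 4 percentile was 61.0, with 38.8 and 81.5 at the 10th and 90th percentiles of positions. It was above 50 for 3223 positions (73.8%). This percentile and the number of livers were weakly related across positions (Spearman's rho 0.198, Pearson's r 0.216, n = 4367, a description of positions that share the same 17 libraries). The highest median percentile, 99.7, belonged to chr1:88213525-88213528, found in every PB liver but liver 16. Its numbers ran from 9 to 536 with a median of 164, on 12 plus-strand and 15 minus-strand records. Next came chr6:71170423-71170426 (98.9) and chr13:12478522-12478525 (97.9, in every liver but 17). They were followed by chr6:71482886-71482889 (97.7, 9 livers) and chr2:64804980-64804983 (97.7, 12 livers). All 5 had records on both strands.

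The other end of the range looked different. The 5 lowest medians, 2.58 to 4.73, belonged to chr14:14183108-14183111, chrX:117375023-117375026, chr9:75075710-75075713, chr3:93278372-93278375 and chr16:87657153-87657156. Each was found in 9 to 11 livers, each had every record on a single strand, and their median numbers were 4 to 6. Of the 36 positions with all records on 1 strand, 29 were minus-strand and 7 plus-strand. Their median percentile was 36.0, against 61.0 for the 4331 with both strands. Below the 10th percentile lay 11 of the 36 and 1 of the 4331. Below the 25th percentile lay 15 of the 36 and 46 of the 4331 (1.06%), so most positions of either kind were not low. These percentiles come from the records that chose the positions, and no test is given.

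**Figure D4:**
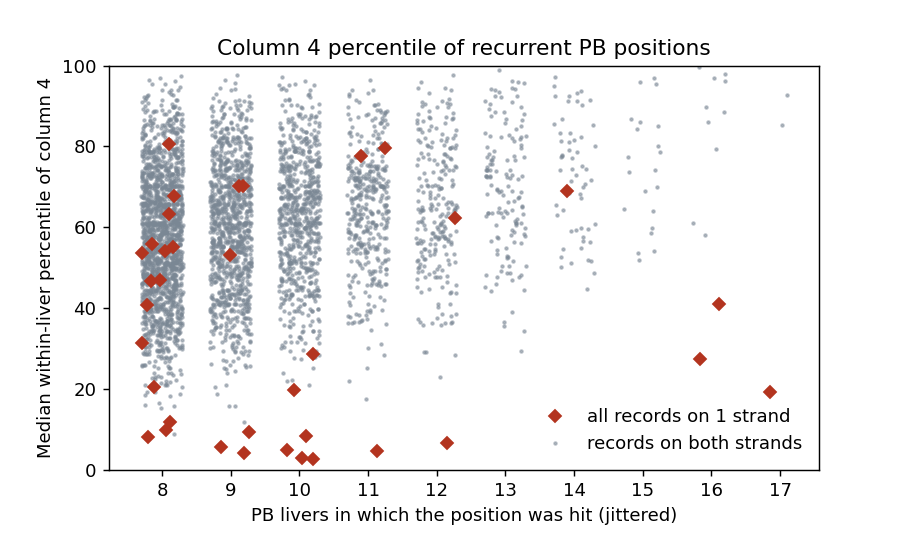
Median within-liver percentile of the column 4 number (vertical axis, 0 to 100) against the number of PB livers that held the position (horizontal axis, jittered), one point per position. Red diamonds are the 36 positions with all records on 1 strand and grey dots the 4331 with both. The 5 lowest points, between 2.58 and 4.73, are red, and the highest, at 99.7, is grey.

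The positions in most livers show both kinds. In 17 of 17 livers 3 positions were found. At chr8:15834144-15834147 all 17 records were on the minus strand, with numbers of 15 to 391 (median 33). Its percentile within a liver was 99.9 in liver 3 and 10.5 in liver 9, with a median of 19.2 over livers. Only 1 SB site and 2 other PB positions lay within 5 kb of it. By contrast, chr15:10378786-10378789 had 14 records on each strand, both orientations in 11 livers, a median percentile of 85.2 and 29 other PB positions within 5 kb. The third, chr11:3096764-3096767, had both orientations in 10 livers, a median percentile of 92.7 and 85 SB sites within 5 kb.

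Of the 12 positions in 16 livers, 10 had both strands. Their median percentiles ran from 58.0 (chr6:94625786-94625789) to 99.7 (chr1:88213525-88213528). Above 95 lay also chr5:87684108-87684111 (97.0), chr13:12478522-12478525 (97.9) and chr14:20723889-20723892 (96.2). Between these limits stood chr2:126537331-126537334, chr4:106508073-106508076, chr10:70031734-70031737, chr11:101410299-101410302 and chr15:100125117-100125120. The other 2, chr14:76600921-76600924 and chr16:79255285-79255288, had 16 minus-strand records each and median percentiles of 41.0 and 27.5. Like the position on chromosome 8 they had few PB neighbours, with 1 other PB position each within 5 kb. The median recurrent position had 16 such neighbours and the median position of 1 liver had 5. Among the 10 positions with most records were also chr3:97725830-97725833 (26 records, 15 livers), chr13:33188429-33188432 and chr15:96445963-96445966 (25 records each, 15 livers each).

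A few recurrent positions lay within 10 bp of each other, in 7 pairs. TTAA cannot overlap another TTAA, so true targets start at least 4 bp apart. The closest pair, chr6:43657794-43657797 and chr6:43657795-43657798, started 1 bp apart with all records of both on the minus strand, in 9 and 8 livers. Their median percentiles were 70.1 and 11.8. The pair chr2:5384152-5384155 and chr2:5384156-5384159, 4 bp apart, had all 12 and all 14 records on the minus strand and 10 livers in common. At 5 bp from the best ranked position of all lay chr1:88213520-88213523, with 11 minus-strand records in 11 livers, 10 of which also held its neighbour. Of the 4367 positions 4.14% had a PB position of any kind 1 bp away, against 3.36% of positions in 1 liver. The share was 9.22% among the 141 positions in 13 livers. Alignment was not re-examined, and the bases at these places were not read.

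SB insertions give a measure that played no part in the choice. Around each recurrent PB position the SB sites within 5 kb either side, 10 kb in all, were counted in every SB liver. The mean was 0.533 ± 0.226 SB sites per position and liver (SD, n = 13), against 0.427 ± 0.179 around PB positions found in 1 liver. The spread reflects the size of the SB libraries. Within libraries the ratio was 1.17 to 1.33 and above 1 in 13 of 13, with a mean of 1.25-fold on the log2 scale (exact two-sided sign-flip permutation test, p = 0.000244, the smallest that 13 livers allow, adjusted p = 0.000279). Against flanks 50 to 100 kb from the same positions the ratio was 1.11-fold, again above 1 in 13 of 13 livers (exact permutation test, p = 0.000244, adjusted p = 0.000279).

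The excess over positions in 1 liver was not particular to positions in 8 or more livers. Against PB positions found in exactly 2 livers the ratio was 1.01-fold and above 1 in 9 of 13 livers, which did not pass the exact permutation test (p = 0.11). Summed over the 13 SB livers, the mean was 6.88 SB sites around positions in 2 livers, 7.07 in 3 livers, 7.01 in 8 livers and 6.83 in 10 livers, against 5.55 in 1 liver. Of the recurrent positions 23 (0.527%) had no SB site within 5 kb, against 4.34% of positions in 1 liver. Within 2.5 kb either side the ratio to positions in 1 liver was 1.10-fold and within 25 kb it was 1.33-fold.

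Between 50 and 500 bp from the recurrent positions SB density was lower, a pattern that was tested after it had been seen. Per 10000 sites of an SB liver, the density in the nearest 50 bp was 6.50 ± 4.08 sites per Mb around recurrent positions and 6.54 ± 0.33 around positions in 1 liver (SD, n = 13), with no difference beyond the spread. Without SB liver 13 these values were 5.48 ± 1.85 and 6.53 ± 0.34 (SD, n = 12). At 50 to 100 bp the density was 3.94 ± 0.92 sites per Mb around recurrent positions and 6.01 ± 0.28 around positions in 1 liver (SD, n = 13). At 250 to 500 bp it was 4.90 ± 0.93 and 5.85 ± 0.37. At 500 to 1000 bp the values of 6.003 ± 0.91 and 5.83 ± 0.30 differed by less than the spread between livers. From there the order turned: at 3 to 5 kb the density was 8.02 ± 0.70 and 5.74 ± 0.31, and it was highest around recurrent positions at 5 to 7.5 kb, 8.13 ± 0.87 against 5.70 ± 0.30.

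Within single SB livers the density inside 500 bp was 0.514 to 0.735 times that from 0.5 to 5 kb around recurrent positions, and 1.01 to 1.05 times around positions in 1 liver. The ranges did not overlap. The ratio of these ratios was 0.614 and below 1 in 13 of 13 livers (exact two-sided sign-flip permutation test, p = 0.000244, adjusted p = 0.000279). Against positions in exactly 2 livers it was 0.652 (exact permutation test, p = 0.000244). Along the classes the mean number of SB sites within 500 bp, summed over livers, was 0.574 for positions in 1 liver, 0.675 in 2 livers, 0.574 in 5 livers, 0.482 in 8 livers, 0.380 in 12 livers and 0.284 in 13 livers. It did not fall steadily. It was higher in 2 livers than in 1, and it was 0.525 in 14 livers, 0.429 in 15 livers and 0.50 in 16 livers, classes of 59 positions or fewer. The class in 17 livers stood at 5.67, with 15 of its 17 SB sites at chr11:3096764-3096767. How many TA dinucleotides lie near these positions was not tested without a genome of the build.

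**Figure D5:**
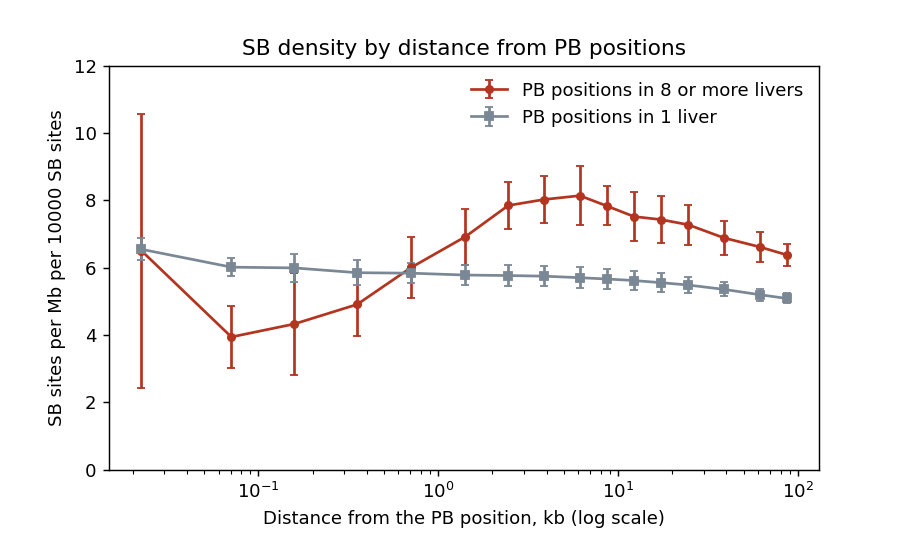
SB sites per Mb per 10000 sites of an SB liver (vertical axis) by distance from a PB position (horizontal axis, kb, log scale), as mean and SD over 13 SB livers. Red is the 4367 positions in 8 or more livers, lower at 50 to 100 bp (3.94 against 6.01) and higher at 3 to 5 kb (8.02 against 5.74) than grey, the positions in 1 liver. The wide bar nearest the position shrinks from an SD of 4.08 to 1.85 without SB liver 13.

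SB sites inside the 4 bp of a recurrent PB position were rare. A total of 16 SB records in 13 positions (0.298%) started there, 14 of them at the second base, where the TA of a TTAA begins. Positions in 1 liver had 1945 such records, in 0.242% of positions. Per liver the numbers were 2.82 ± 2.12 and 1.98 ± 0.76 records per 10000 positions (SD, n = 13). The difference of 0.836 was positive in 8 of 13 livers and did not pass the exact two-sided sign-flip permutation test (p = 0.126, adjusted p = 0.126).

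The recurrent positions with most SB sites nearby all lay in one stretch of chromosome 11. The 5 highest were chr11:3136998-3137001 (154 SB sites within 5 kb either side), chr11:3143705-3143708 (150), chr11:3092252-3092255 (137), chr11:3096587-3096590 (96) and chr11:3096414-3096417 (93). The median recurrent position had 6. The window from 3 to 4 Mb held 8 recurrent positions, of which 7 had 85 or more SB sites and chr11:3401496-3401499 had 11. Records there were on both strands at all 8. Without this window the SB ratio to positions in 1 liver was 1.22-fold and the ratio inside 500 bp 0.603. The copy number of this stretch in the mice was not tested.

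PB sites that are not themselves recurrent were also dense nearby. In PB livers left out of the choice, 8.10% ± 0.87 of the other positions lay within 5 kb of a recurrent one (SD, n = 17), against 2.67% ± 0.24 of positions in SB livers (SD, n = 13). The lowest PB value, 7.02%, lay above the highest SB value, 3.09%. The ratio was 3.02-fold (two-sided permutation test with 100000 resamples, p = 1e-05, the smallest they can give, adjusted p = 3.06e-05). The positions were chosen on PB livers alone, so the direction of this ratio was favoured in advance and the test gives no separate support. PB values were 7.02% to 8.22% in livers 1 to 12 and 8.60% to 9.73% in livers 13 to 17, but the lists of recurrent positions behind them held 3177 to 3582 and 3789 to 4128 positions, so these ranges are not compared. SB values used all 4367 positions, a longer list than that of any PB liver. With 2.5 kb either side the ratio was 4.68-fold and with 25 kb 1.60-fold. Within 50 to 100 bp of a recurrent position the PB records of all livers gave 3453 PB positions per Mb, against 978 around positions in 1 liver, and at 75 to 100 kb 653 and 498. These densities come from the same 17 livers that made the choice, and no test is given.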

How the data were processed

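Insertion sites had been mapped by streptavidin-based enrichment sequencing of liver DNA. Per the submitters' processing notes, cutadapt, BWA and GRCm39 were used, without versions. The deposited file of each liver gives chromosome, start, end, strand and another whole number per site, a mixed column (unit: other) whose meaning and filters are not stated. Its smallest value was 3. Start positions are printed 1-based. A PB site covers 4 bp, an SB site 2 bp. Mitochondrial sites (30) and the 2 merged tables (1 pooled column each) were not used.

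The members and lists were chosen with earlier results of these data known. Positions were taken with strand ignored. Tests were exact two-sided sign-flip permutation tests over livers of log2 ratios, or a permutation test for PB against SB, with Benjamini-Hochberg adjustment over 8 tests. The planned log2 ratio for SB sites inside the 4 bp could not be formed, because some livers had none, and a difference was tested. Named were positions in 16 or 17 livers and those with most records (10), most SB sites (5), the highest and lowest column 4 percentile (5 each) and most livers on 1 strand (5). The clusters with most positions were named up to 5, ties going to the first by chromosome and position, and the windows, pairs and the positions of the chromosome 11 window were picked after their values were seen. Each liver is 1 replicate, and p-values measure the spread between livers. Liver numbers shared by PB and SB were not taken as pairs in the main test. Over 1 Mb windows the correlation of deviations was -0.01 to 0.09 in 13 pairs, none over 0.1. Whether shared numbers mark a shared batch was not tested. The calculation was run on simulated livers with known rates. These had randomly scattered positions and similar library sizes, so clustered positions and unequal libraries were not covered. Python 3.11.15, numpy 2.4.6 and pandas 2.3.3 were used.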

Additional observations from a re-analysis of the deposited data

How the results depend on the processing

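Of 81 repeats under other settings, 79 kept their direction, their side of the 0.05 threshold or, for the number of positions, stayed within 1.5 times. The exceptions were the SB density against PB positions in exactly 2 livers (log2 ratio 0.015, exact permutation test, p = 0.11), and the number of positions in at least 8 livers when PB livers 1 to 12 alone were used, 2647 in place of 4367, with fewer livers to choose from. With a column 4 minimum of 10 the number was 3852 and with positions within 10 bp merged 4541. The 79 include the SB density against the flanks, which is the same test as the one given in the results. They also include 11 repeats of the PB to SB ratio, whose direction was favoured in advance. Other ranges were 25.7-fold to 39.2-fold for the return of recurrent positions at limits of 6 and 10 livers, 1.11-fold to 1.31-fold for the column 4 number, 11.7-fold to 14.02-fold for both strands and 0.581 to 0.676 for SB density inside 500 bp. At the limit of 10 livers SB liver 13 had no SB site inside 500 bp, so that value (0.581) leaves it out. The difference in SB sites inside the 4 bp ran from 0.056 to 1.84 per 10000 positions and passed in no setting (exact permutation tests, p from 0.113 to 0.943).

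With the liver number as a replicate block, the PB to SB ratio of sites near recurrent positions was 2.90-fold (log2 1.53, exact sign-flip permutation test, p = 0.000244, 13 pairs), and the call did not change. Here too the positions were chosen on PB livers alone. The whole comparison inside 500 bp was added after the data were seen, as were the merging and the column 4 minimum for the number of positions. Sites with a column 4 number under 3 are not seen in these files, and SB liver 13, with 4893 sites, limits what single distance bins can show.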

Other observations

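SB had recurrent positions of its own, and most of those close to recurrent PB positions lay in the chromosome 11 stretch. Of 37 SB positions found in at least 5 SB livers, 5 (13.5%) lay within 5 kb of a PB position in 8 or more livers, against 2.66% of all 929790 SB positions. Outside chromosome 11 from 3 to 4 Mb it was 1 of 30 (3.33%), against 2.63%. For SB positions in at least 3 SB livers the numbers were 51 of 681 (7.49%), and 19 of 622 (3.05%) outside that window. These values are descriptions, and no test was run on them.

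Recurrent positions with all records on 1 strand were few in number in every class, though not as a share of the classes of 16 and 17 livers. They were 15 of 1703 positions in 8 livers, 6 of 1053 in 9 livers, 6 of 732 in 10 livers, 3 of 398 in 11 livers and 2 of 245 in 12 livers. Above that they were 0 of 141 in 13 livers, 1 of 59 in 14 livers, 0 of 21 in 15 livers, 2 of 12 in 16 livers and 1 of 3 in 17 livers. Among the positions in 16 or 17 livers, the 3 with 1 strand had 1 or 2 other PB positions within 5 kb, while the 12 with both strands had 1 (chr10:70031734-70031737) to 33 (chr11:3096764-3096767).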
